A study of Mus musculus with 8 samples.

Results

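The effect of culture duration in wild-type mouse embryonic stem cells (mESCs) was examined in 4 of the 8 libraries of the series, those of the R9wt genotype, with 2 cultures fixed after 1 day (D1) and 2 after 5 days (D5). Libraries were assigned to groups by their labels. Each D5 culture was compared with the D1 culture of the same location, either space (on board a satellite) or ground (the same kind of payload kept on Earth), so that location pairs the libraries. R9wt denotes cells with an intact Rad9 gene (Rad9+/+), and the other 4 libraries come from R9del cells, in which Rad9 was deleted (Rad9-/-). They served here as a comparison. Each combination of location, genotype and day was represented by 1 library. D1 and D5 cultures sat in separate device groups with separate temperature control, and fewer R9wt cells were seeded for D5 than for D1. D1 cells were kept cold in fixative from day 1 and D5 cells from day 5. Culture duration, device group, seeding density and time in fixative therefore cannot be told apart.

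mESCs are derived from the inner cell mass of the blastocyst and are held in a naive pluripotent state by a network of transcription factors around Pou5f1, Sox2 and Nanog. FGF signalling through ERK drives exit from this state towards the formative and primed epiblast, from which the germ layers form, while Nodal signalling, restrained by its own targets Lefty1 and Lefty2, patterns the next steps. Extraembryonic fates, trophoblast and primitive endoderm, separate from the epiblast before implantation, and their genes are usually low in mESC cultures.

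The R9wt libraries held between 60801746 and 96416907 counts, and the limit of 3 counts that a count of 0 allows lay at or below 0.0493 CPM (counts scaled to library size). CPM values carry the TMM scaling of edgeR, with factors from 0.964 to 1.036. The summed level of 10 embryonic stem cell markers was between 4816 and 8406 CPM in the R9wt libraries, and none of these markers was at 0. Rad9 itself, the gene that defines the genotypes, stood at 89.3 CPM in space on D1 and 68.1 CPM on D5, and at 90.8 and 82.7 CPM on the ground. It did not pass the test of D5 against D1. In the R9del libraries it stood between 20.9 and 28.3 CPM, lower than in every R9wt library but not at 0. The share of counts from mitochondrial genes was lower on D5 than on D1 in both locations, at 1.12% against 1.37% in space and 1.20% against 2.47% on the ground, and its part in the results was not tested. In bulk RNA a change in the number of cells of a type cannot be told apart from a change in RNA per cell.

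Among 21109 genes tested, D5 cells were called higher than D1 cells at 559 genes (2.65%) and lower at 307 (1.45%). Genes were called where they differed 2-fold or more and edgeR's quasi-likelihood test, with location as a covariate, gave p under 0.05 before adjustment. None passed after Benjamini-Hochberg adjustment, with a smallest adjusted p of 0.35. In all, 882 genes (4.18%) had an unadjusted p under 0.05, whatever the fold. On counts simulated for this comparison without a location effect, the test called 900 of 20010 unchanged genes (4.5%). The likelihood ratio test of edgeR called 198 genes and DESeq2's Wald test 253 at an adjusted p under 0.05 and a fold of at least 2, and the quasi-likelihood fit over all 8 libraries called 9. An exact two-sided permutation test of 2 libraries against 2, which ignores the pairing by location, cannot go below p = 0.333. The test leaves 1 residual degree of freedom, which is the disagreement between the space and ground pairs. It adds a prior of 5.41 degrees of freedom drawn from the other genes. Nothing in the labels says that libraries are independent repeats of a culture condition. The p-values therefore weigh the change against that disagreement and do not measure the spread of repeated cultures.

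Across the 21109 genes, the log2 ratio of D5 over D1 in space had a Pearson correlation of 0.0544 and a Spearman correlation of -0.0090 with that on the ground, a description over genes that are not independent. The ratios had nearly equal spread, with an SD of 1.25 in space and 1.27 on the ground, and medians of -0.03 and -0.02 on the log2 scale. The 2 pairs share no library. Genes past 2-fold up in both locations numbered 874 (4.14%) and genes past 2-fold down in both 763 (3.61%). Genes up past 2-fold in space and down past 2-fold on the ground numbered 575 (2.72%), and the reverse pattern held 912 (4.32%). Of the 866 genes called, 742 were past 2-fold in the same direction in both locations. A call already requires a 2-fold mean change and little disagreement between the 2 pairs. This count therefore follows largely from the rule for calling and is no separate evidence that the locations agree.

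**Figure D1:**
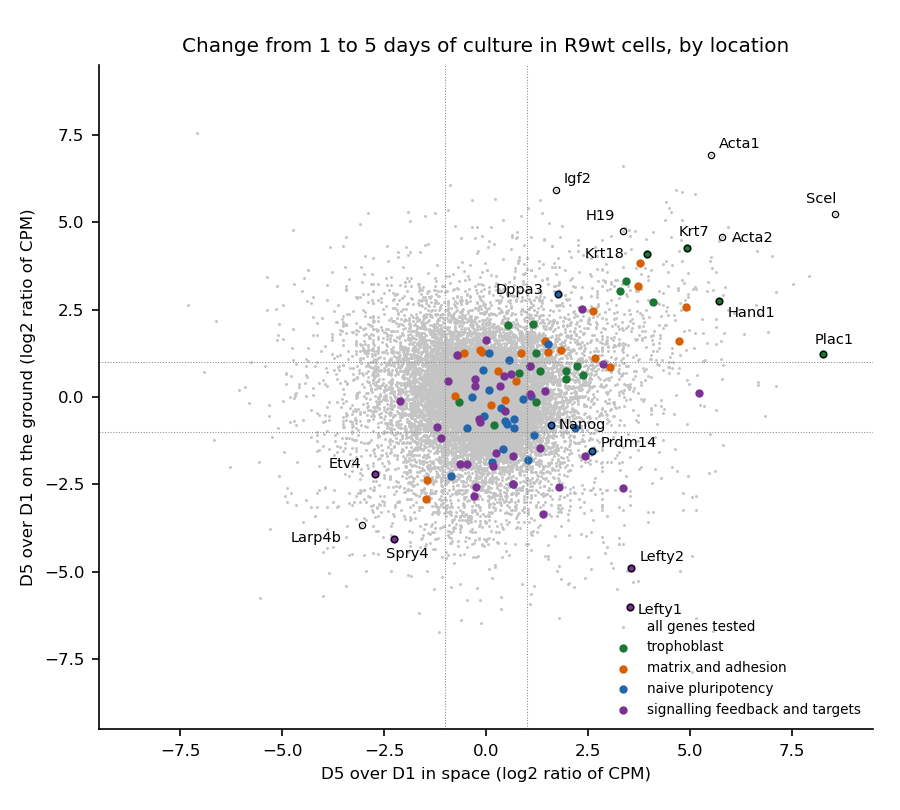
Each grey point is 1 of 21109 genes, placed by its log2 ratio of D5 over D1 in space (x axis) and on the ground (y axis), with dotted lines at 2-fold and 4 gene lists in colour. Trophoblast and matrix genes reach into the upper right, where Krt18 lies at 3.96 and 4.10, while Lefty1 lies at 3.52 in space and -6.02 on the ground.

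Genes of simple epithelium and trophoblast were among those that rose in both locations. Krt18 (chr15:101858647-101862457, mm9, plus strand), a keratin of simple epithelia, stood at 111 CPM in space and 78.5 CPM on the ground on D1, and at 1735 and 1347 CPM on D5. Both D5 libraries lay far above both D1 libraries, with a log2 fold change of 4.03 ± 0.38 (SE, unadjusted p = 2.61e-05, adjusted p = 0.35, edgeR's quasi-likelihood test). Krt8 (chr15:101827142-101834773, minus strand), the partner with which Krt18 forms filaments, rose from 33.3 to 574 CPM in space and from 35.8 to 237 CPM on the ground. Of the 50-base stretches of its exons, 55.2% also occur elsewhere in the genome, so that its counts could include reads of copies. Krt7 (chr15:101241474-101260744, plus strand), a keratin of the trophectoderm and of ducts, rose from 6.72 to 205 CPM in space and from 8.19 to 157 CPM on the ground. For these keratins the D1 and D5 groups did not overlap.

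Gata2, Gata3, Hand1 and Tfap2c, transcription factors of the trophoblast list, were also called higher. Gata3, a factor of the trophectoderm, was at 7.75 CPM on D1 and 83.7 CPM on D5 in space, and at 2.92 and 29.3 CPM on the ground. Gata2, its relative in trophoblast giant cells, increased from 1.21 to 12.1 CPM in space and from 2.01 to 16.7 CPM on the ground. Both D5 values of each factor lay above both D1 values, and the log2 fold changes were 3.38 ± 0.49 for Gata3 and 3.18 ± 0.61 for Gata2. Hand1, which is required for giant cells and for the heart, was near 2.05 CPM in both D1 libraries, and it reached 110 CPM in space but 13.9 CPM on the ground on D5. Tfap2c, a factor shared by trophoblast and germ cells, rose from 33.8 to 158 CPM in space and from 69.6 to 128 CPM on the ground. Plet1, a surface protein of trophoblast progenitors, moved from 14.4 to 56.0 CPM in space and from 18.01 to 30.4 CPM on the ground.

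Of the 22 trophoblast genes in the list, 20 were tested, 8 were called higher and none lower, and 9 were past 2-fold up in both locations. Over all genes tested, 2.65% were called higher and 4.14% were past 2-fold up in both. Their median log2 ratio was 1.96 in space and 1.05 on the ground, against -0.03 and -0.02 over all genes tested. Cdx2, Gcm1 and Plac1 were among the 9 but did not pass the test. Cdx2, the factor that starts the trophoblast lineage, was at 0.149 and 0.365 CPM in space and 0.645 and 2.82 CPM on the ground, and Elf5 was at or below 0.413 CPM in every R9wt library. Gcm1, a factor of the placental labyrinth, went from 1.36 to 3.22 CPM in space and from 0.577 to 1.42 CPM on the ground. Plac1, a placental surface protein, stood at 0.104 and 40.4 CPM in space but only at 0.441 and 1.06 CPM on the ground. The spongiotrophoblast gene Tpbpa had 0 counts in all 4 libraries, and the giant cell gene Prl3d1 had 7 counts in the space D5 library and 0 in the others. The summed level of the 8 trophoblast cell markers was 26.8 on D1 and 347 CPM on D5 in space, and 21.6 and 229 CPM on the ground, mainly through Krt7 and Gata3.

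**Figure D2:**
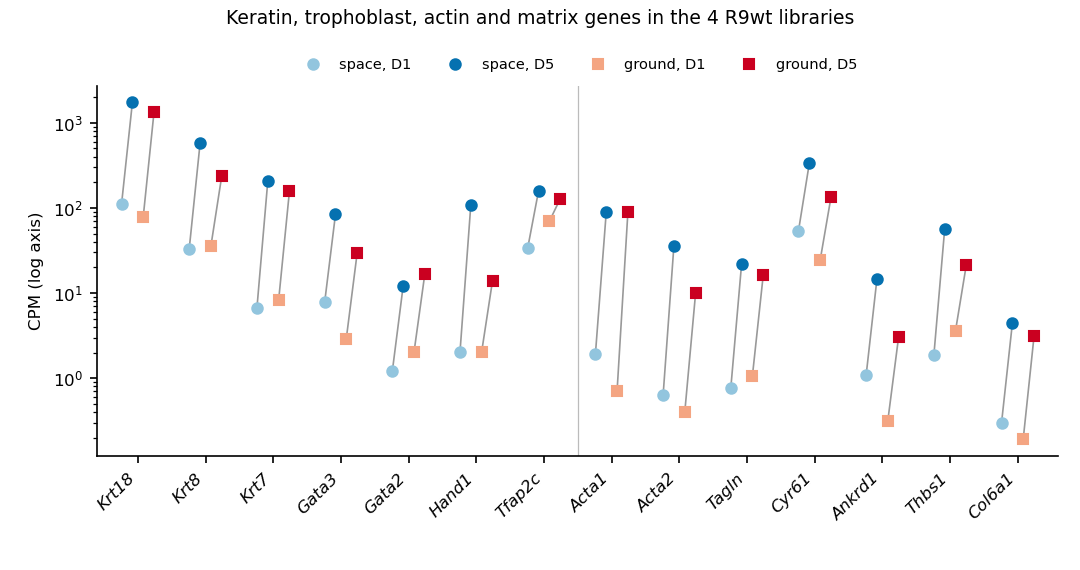
CPM on a log axis of 14 genes in each R9wt library, with circles for space, squares for ground, pale symbols for D1 and dark symbols for D5, joined within a location. Every D5 symbol lies above its D1 partner, from Krt18 at 1735 CPM in space on D5 down to Col6a1 at 0.192 CPM on the ground on D1.

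Acta1, Acta2 and some genes of the extracellular matrix were called higher as well. Acta1, the actin of skeletal muscle, stood at 1.91 and 0.701 CPM on D1 in space and on the ground, and at 88.5 and 88.8 CPM on D5. Its log2 fold change of 6.25 ± 0.65 had an unadjusted p of 4.97e-05 (adjusted p = 0.35, edgeR's quasi-likelihood test). Acta2, the smooth muscle actin, rose from 0.627 to 36.0 CPM in space and from 0.396 to 9.93 CPM on the ground. Tagln, an actin-binding protein of smooth muscle, rose from 0.762 to 22.0 CPM in space and from 1.07 to 16.4 CPM on the ground. For all 3 genes the D1 and D5 groups were apart by more than the difference between locations.

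Other members of the matrix and adhesion list were also called higher. Cyr61, a matricellular protein, stood at 53.7 and 24.2 CPM on D1 and at 333 and 133 CPM on D5 in space and on the ground. Ankrd1, a nuclear ankyrin-repeat protein, rose from 1.09 to 14.8 CPM in space and from 0.317 to 3.08 CPM on the ground. Thbs1, an adhesive glycoprotein, rose from 1.85 to 56.4 CPM in space and from 3.61 to 21.5 CPM on the ground. Ctgf, a relative of Cyr61, increased from 7.63 to 22.0 CPM in space and from 11.6 to 28.3 CPM on the ground. The collagen genes Col6a1 and Col1a2 and the protease inhibitor Timp3 were called higher too, with log2 fold changes between 1.53 and 3.94. Part of Timp3 (21.3% of its exon bases) overlaps another gene.

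Vim, the intermediate filament of mesenchyme, moved the other way, from 85.1 to 30.9 CPM in space and from 66.3 to 12.6 CPM on the ground (log2 fold change -1.93 ± 0.48). Of the 22 matrix and adhesion genes tested out of 24, 8 were called higher and 1 lower, against 2.65% and 1.45% of all genes. In both locations 9 were past 2-fold up and 2, Vim and Lox, past 2-fold down, and the median log2 ratios were 0.80 in space and 1.25 on the ground. Of the 10 fibroblast markers, 6 were tested and Col1a2 was called higher. Col1a1 was at 4.35 and 7.92 CPM in space and at 3.74 and 9.03 CPM on the ground without passing the test. Col3a1, Postn, Dcn and Lum had at most 10 counts in any R9wt library, and the summed level of the 10 markers went from 56.3 to 50.5 CPM in space and from 42.3 to 61.1 CPM on the ground. Of the 8 muscle cell markers, 7 were tested, and Acta2 and Tagln were called higher. Past 2-fold higher were 5 on the ground and 2 in space, against 16.3% and 13.9% of all genes. Tnnt2, a troponin of heart muscle, was at 3.49 and 4.08 CPM in space and at 0.226 and 12.6 CPM on the ground, and Des, the muscle intermediate filament, at 85.7 and 106 CPM and at 69.5 and 207 CPM. Actc1 had at most 7 counts in a library, and the summed level of the markers went from 97.1 to 175 CPM in space and from 79.6 to 255.8 CPM on the ground. Of the 8 endothelial cell markers, 7 were tested, and Cdh5 and Vwf were called higher. Past 2-fold higher were 4 in space and 4 on the ground, and past 2-fold lower 1 and 0. Their median log2 ratios were 1.06 and 1.03. The sum was 356 and 478 CPM in space and 174 and 152 CPM on the ground, and it includes Pecam1, also a member of the naive pluripotency list. The part of other cell types in these results was not tested.

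The stretches before the start sites of 4 of these genes, which were called higher together, are shown with their motif matches. They are taken from RefSeq (GRCm38.p6, whose coordinates differ from the mm9 build of the counts) and are printed 5′ to 3′ up to the base before the start. Capitals mark a strict CArG box, the motif of serum response factor (CC, then 6 bases that are each A or T, then GG), or GGAATG on either strand (CATTCC on the other), the core motif of Tead factors; the matches do not overlap. These genes and motifs were chosen after the values were seen.
Acta1, chr8:123894776-123894935, minus strand: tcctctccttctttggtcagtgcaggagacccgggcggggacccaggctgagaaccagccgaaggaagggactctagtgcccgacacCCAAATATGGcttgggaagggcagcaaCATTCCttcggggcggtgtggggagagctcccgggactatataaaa
Acta2, chr19:34255374-34255533, minus strand: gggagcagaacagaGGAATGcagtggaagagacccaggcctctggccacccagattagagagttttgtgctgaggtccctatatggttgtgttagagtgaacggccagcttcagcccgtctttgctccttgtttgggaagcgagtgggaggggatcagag
Ankrd1, chr19:36119845-36120094, minus strand: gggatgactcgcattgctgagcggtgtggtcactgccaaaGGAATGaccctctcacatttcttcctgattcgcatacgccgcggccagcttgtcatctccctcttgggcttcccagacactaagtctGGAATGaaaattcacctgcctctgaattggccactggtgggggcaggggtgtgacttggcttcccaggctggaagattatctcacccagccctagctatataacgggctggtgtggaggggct
Cyr61, chr3:145649986-145650145, minus strand: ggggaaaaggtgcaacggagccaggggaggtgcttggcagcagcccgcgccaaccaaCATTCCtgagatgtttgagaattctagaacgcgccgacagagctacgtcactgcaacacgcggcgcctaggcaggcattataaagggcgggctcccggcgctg
Of these 4, the strict CArG box was found before Acta1 (CCAAATATGG, 73 to 64 bases before the start), and GGAATG or CATTCC before each of the 4 shown, which were picked for holding a match. In the 250 bases before the start, a strict CArG box occurred at 1.62% of the 27025 genes of the RefSeq table and GGAATG on either strand at 14.4%. Of 8 actin and matrix genes looked up, 5 had an entry in the table, and the fifth, Cnn1, held neither motif. Forms of the CArG box with a mismatch were not searched, so no match does not mean that a gene lacks one. A match is a description of the letters and not of a bound site.

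The largest rises were also found at genes outside these groups. Scel, a precursor of the cornified envelope, had 0 counts in space on D1 and 9.73 CPM on D5, at least 217-fold higher against 3 counts, and it rose from 0.0452 to 2.65 CPM on the ground. Vnn1, a pantetheinase, stood at 0.508 and 0.396 CPM on D1 and at 32.9 and 12.1 CPM on D5. Anxa1, an annexin of epithelia, stood at 1.39 CPM in both D1 libraries and at 65.9 CPM in space and 18.2 CPM on the ground on D5. Pde2a, a cyclic nucleotide phosphodiesterase, went from 0.224 to 6.84 CPM in space and from 0.26 to 6.35 CPM on the ground. Rhox6, an X-linked homeobox gene of placenta and germ cells, rose from 0.552 to 80.6 CPM in space and from 1.40 to 11.4 CPM on the ground, and 31.3% of its 50-base stretches occur elsewhere in the genome. Csf1r, the receptor of colony-stimulating factor 1, rose from 0.329 to 9.89 CPM in space. On the ground it had 2 counts on D1 and 147 on D5, a ratio of 69.9 with a 95% interval of 19.02 to 583 that covers counting error only. Wdr72 and 3830417A13Rik completed the 10 largest rises among called genes that were past 2-fold in both locations with a mean log2 CPM of at least 1, with log2 fold changes of 5.22 ± 0.89 and 5.59 ± 0.97.

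The fit over all 8 libraries, in which R9del libraries also inform the spread, gave 9 genes an adjusted p under 0.05 for D5 against D1 in R9wt cells (edgeR's quasi-likelihood test, adjusted p between 0.0423 and 0.048). Krt18, Krt7 and Vnn1 were among them. The others were named after their values were seen. Bgn, the matrix proteoglycan biglycan, stood at 1.51 and 0.814 CPM on D1 and at 26.3 and 22.0 CPM on D5 in space and on the ground. Gsn, the actin-severing protein gelsolin, rose from 20.8 to 153 CPM in space and from 12.8 to 129 CPM on the ground. Anxa3, Tns4, a tensin of focal adhesions, and Gpx3, a secreted glutathione peroxidase, had log2 fold changes of 3.31, 4.26 and 3.15 in that fit. Gal3st4, a sulfotransferase, fell, from 1.91 to 0.0159 CPM in space and from 1.96 to 0.0108 CPM on the ground, which are 1 count in each D5 library.

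Some genes under FGF and ERK control fell in both locations. Etv4 (chr11:101631056-101646685, minus strand), an ETS factor induced by ERK signalling, stood at 125 CPM in space and 121 CPM on the ground on D1, and at 18.7 and 26.1 CPM on D5. The D1 values differed little between locations, and the log2 fold change was -2.47 ± 0.44 (unadjusted p = 0.00108, adjusted p = 0.71, edgeR's quasi-likelihood test). Spry4, a feedback inhibitor of the same pathway, went from 115 to 24.1 CPM in space and from 92.3 to 5.51 CPM on the ground. Etv1, another ETS factor, went from 18.1 to 1.68 CPM in space and from 8.52 to 0.635 CPM on the ground, and 30.6% of its 50-base stretches also occur elsewhere in the genome. Spry2 was called lower as well, from 27.6 to 17.6 CPM in space and from 72.2 to 19.2 CPM on the ground.

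Other ERK targets were not called lower. Etv5 was higher on D5 in space (210 and 334 CPM) and lower on the ground (327 and 102 CPM). Dusp6, the ERK phosphatase, was at 67.8 and 57.3 CPM in space and at 65.0 and 10.9 CPM on the ground. Fos, an immediate early gene, was called higher, with 10.96 and 79.8 CPM in space and 9.80 and 18.9 CPM on the ground. Egr1 was past 2-fold higher in space (12.5 and 67.4 CPM) and past 2-fold lower on the ground (30.5 and 9.42 CPM).

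Larp4b, an RNA-binding protein, stood at 152 and 119 CPM on D1 and at 18.3 and 9.32 CPM on D5 in space and on the ground. Arl5b, a small GTPase, went from 43.6 to 2.78 CPM in space and from 26.4 to 4.30 CPM on the ground. Mllt6, a chromatin factor, was uneven between locations, with 22.7 and 8.35 CPM in space and 241 and 7.70 CPM on the ground. Cd63-ps, Tppp, Tgm3, Ankrd34a and 8430429K09Rik made up the rest of the 10 largest falls among called genes that were past 2-fold in both locations with a mean log2 CPM of at least 1, with log2 fold changes between -3.92 and -3.01. Pim2, a kinase gene of the pluripotent state, was called lower at 82.9 and 32.1 CPM in space and 83.3 and 39.1 CPM on the ground, a call lost whichever of the 4 libraries was left out.

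The core of the pluripotency network showed no common change. Pou5f1 (Oct4) stood at 973 and 929 CPM in space on D1 and D5 and at 1754 and 952 CPM on the ground. Sox2 was at 84.6 and 121 CPM in space and at 247 and 145 CPM on the ground, so that the D5 values lay between those of D1. Esrrb was at 111 and 88.2 CPM in space and at 46.4 and 45.9 CPM on the ground, and its locations differed more than its days. Tbx3 and Klf4 had log2 fold changes of 0.13 ± 0.37 and 0.42 ± 0.42. None of these passed the test. Among 16 core pluripotency genes, none was called higher and 2 lower (2.65% and 1.45% of all genes), among them Lin28b, and the median log2 ratio was 0.06 in space and -0.80 on the ground.

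Several naive factors were higher on D5 in space and lower on the ground. Nanog was at 207 and 623 CPM in space and at 393 and 227 CPM on the ground. Prdm14, a repressor of differentiation and DNA methylation, was at 9.96 and 60.4 CPM in space and at 23.7 and 8.13 CPM on the ground. Klf2 and Nr5a2 had the same pattern, with ratios of 2.04 and 2.26 in space and of 0.284 and 0.471 on the ground. Zfp42 (Rex1), a marker of the naive state, was at 84.1 and 112 CPM in space and at 605 and 216 CPM on the ground. With 1 library a side in each location, these opposite ratios have no test. Of the 50-base stretches of the exons, 20.6% for Nanog, 17.8% for Pou5f1 and 34.9% for Zfp42 occur elsewhere in the genome.

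Dppa3 (Stella), a naive and germ cell gene, was called higher. It was at 5.05 and 6.06 CPM on D1 and at 17.3 and 46.6 CPM on D5 in space and on the ground (log2 fold change 2.36 ± 0.57, unadjusted p = 0.00542, adjusted p = 0.88, edgeR's quasi-likelihood test). The call was lost without the ground D5 library, and 27.6% of the 50-base stretches of its exons occur elsewhere in the genome. Stra8, a gene induced by retinoic acid in germ cells, went from 2.94 to 8.45 CPM in space and from 1.97 to 5.67 CPM on the ground. It was called higher, a call lost without the ground D1, the space D1 or the space D5 library, and with location left out. Tet2, an enzyme that oxidizes methylated cytosine, was called lower, from 92.4 to 51.2 CPM in space and from 47.2 to 9.91 CPM on the ground. These were the only calls among 25 naive genes, against 2.65% of all genes called higher and 1.45% lower. Their median log2 ratio was 0.57 in space and -0.69 on the ground.

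Genes of the formative and primed states did not rise as a group. Fgf5, a marker of the primed epiblast, had 0.0747 CPM on D1 and 2.71 CPM on D5 in space, and 0.78 CPM on D1 and 0 counts on D5 on the ground, at least 24.2-fold lower there against 3 counts. Otx2, which directs the naive to primed transition, was at 27.0 and 61.4 CPM in space and at 60.2 and 10.8 CPM on the ground. Dnmt3b, a de novo DNA methyltransferase, was at 59.5 and 46.5 CPM in space and at 87.1 and 60.5 CPM on the ground, and Pou3f1 at 4.94 and 5.00 CPM and at 9.31 and 7.68 CPM. Nearly all of the Pou3f1 exon bases (99.8%) overlap another gene model. Of 21 genes in the list, Krt18 was called higher and Etv4 and Pim2 lower (2.65% and 1.45% of all genes), and the median log2 ratio was -0.24 in space and -1.09 on the ground.

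Nodal and its feedback targets differed widely between locations. Lefty1 (chr1:182865153-182868531, plus strand), a secreted Nodal inhibitor, went from 12.7 to 147 CPM in space and from 456 to 6.996 CPM on the ground. Lefty2 (chr1:182823239-182829234, plus strand), its neighbour with the same function, went from 9.09 to 108 CPM in space and from 158 to 5.31 CPM on the ground. The locations differed on D1 already, with the ground above space, and the order was reversed on D5. Smad7, an inhibitor of the receptor, was at 3.64 and 38.0 CPM in space and at 29.3 and 4.80 CPM on the ground. Nodal itself was at 19.7 and 22.0 CPM in space and at 35.4 and 8.94 CPM on the ground, and its co-receptor Tdgf1 at 461 and 724 CPM and at 1098 and 194 CPM. Of the 50-base stretches of their exons, 19.4% for Lefty1 and 15.4% for Lefty2 occur elsewhere in the genome. Of the 37 signalling genes, 7 were up past 2-fold in space and down past 2-fold on the ground and none the other way round, against 2.72% and 4.32% of all genes. Called genes were Fos and Msx2 (higher) and Etv4, Spry2 and Spry4 (lower), against 2.65% and 1.45% of all genes. The medians were 0.34 in space and -0.87 on the ground.

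**Figure D3:**
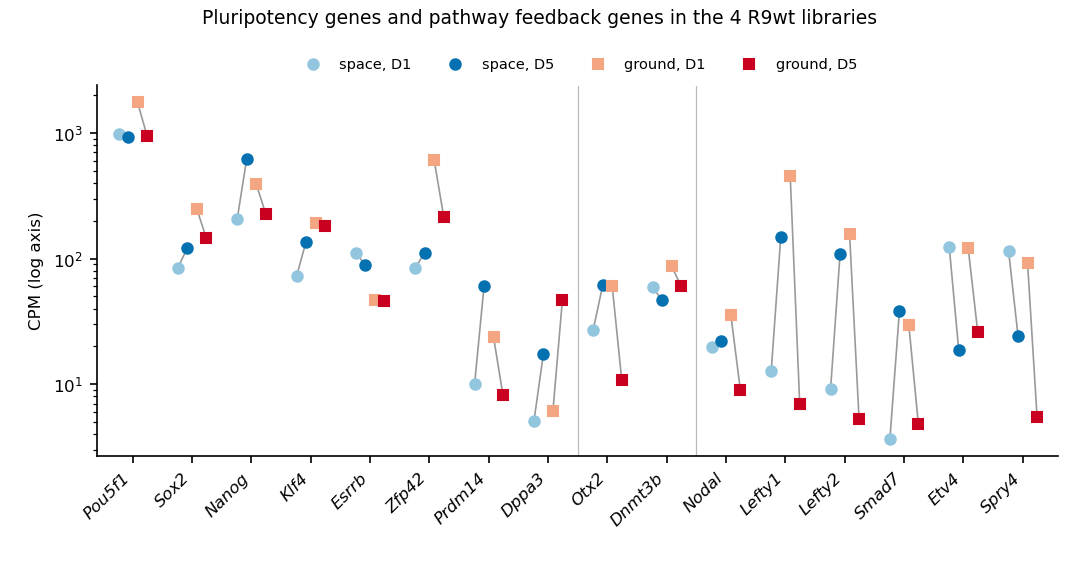
CPM on a log axis of pluripotency genes (left), formative genes (middle) and pathway feedback genes (right) in each R9wt library, drawn as circles for space and squares for ground, pale for D1 and dark for D5. Lefty1 moves from 12.7 to 147 CPM in space and from 456 to 6.996 CPM on the ground, whereas Etv4 and Spry4 are lower on D5 in both.

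The streak genes T and Mixl1 were at or below 2.36 CPM in every R9wt library, and Eomes was at 12.9 and 30.2 CPM in space and at 10.8 and 9.79 CPM on the ground. Foxa2, an endoderm and node factor, was called higher, from 0.104 to 1.43 CPM in space and from 0.814 to 3.37 CPM on the ground. This call was lost without the space D1 or the ground D5 library, and with location left out of the fit. Foxa2 was the only call among 21 streak genes tested, where 2.65% of all genes were called higher and 1.45% lower. Among 14 definitive endoderm genes, Foxa2 and Apoa1, an apolipoprotein of liver and visceral endoderm, were called higher. Of 22 mesoderm and cardiac genes tested, 4 were called higher (2.65% of all genes), namely Hand1, Acta2, Tagln and Msx2, a target of BMP that rose from 0.254 to 1.41 CPM in space and from 0.916 to 5.39 CPM on the ground.

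Pax6, a factor of the neural plate and eye, fell from 2.66 to 0.381 CPM in space and from 1.07 to 0.0753 CPM on the ground (log2 fold change -3.27 ± 0.92), and 27.9% of its exon bases overlap another gene. En2 and Neurod1 were past 2-fold lower in both locations without passing the test. Pax3 and Irx3 were past 2-fold higher in both without passing it, at 0.104 and 0.318 CPM in space and 0 and 0.334 CPM on the ground for Pax3, and at 0 and 0.159 CPM and 0.418 and 1.46 CPM for Irx3. Nes, an intermediate filament of neural progenitors, was at 26.4 and 14.3 CPM in space and at 18.2 and 15.8 CPM on the ground. Of 24 neural genes only 15 were tested, with Pax6 the sole call, against 2.65% of all genes called higher and 1.45% lower. The medians were -0.88 in space and -0.44 on the ground. Setting genes with 0 counts to the limit of 3 counts moved the space median to -0.55. No Hox gene was called among 24 tested, against the same shares of all genes.

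Primitive endoderm genes were past 2-fold higher at 16 of 20 members in space and at 4 on the ground, against 13.9% and 16.3% of all genes tested. The basement membrane collagens Col4a1 and Col4a2, which are made in quantity by parietal endoderm, were called higher, with Col4a2 going from 88.2 to 492 CPM in space and from 69.2 to 200 CPM on the ground. Dab2, an endocytic adaptor of the visceral endoderm, rose from 6.62 to 85.04 CPM in space and from 12.8 to 21.2 CPM on the ground, and Sparc, a matrix glycoprotein, from 515 to 1420 CPM and from 411 to 741 CPM. The defining factors Gata4 and Gata6 did not pass the test. Gata4 was at 3.82 and 15.5 CPM in space and at 6.28 and 9.04 CPM on the ground, and Gata6 at 1.81 and 12.7 CPM and at 3.11 and 4.46 CPM. Sox17 was at 0.0597 and 0.746 CPM in space and at 2.997 and 5.89 CPM on the ground, so that the locations differed more than the days. Of 20 genes, 5 were called higher and none lower (2.65% and 1.45% of all genes), the fifth being Afp, which had 0 counts in both D1 libraries and at most 1.20 CPM on D5. The median log2 ratio was 2.00 in space and 0.52 on the ground, and the summed level of the 8 markers of this cell type went from 22.8 to 197 CPM and from 56.8 to 101 CPM.

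Among imprinted and germline genes, few members accounted for the calls. H19, a non-coding RNA of extraembryonic tissue and fetus, stood at 4.02 and 2.09 CPM on D1 and at 41.5 and 57.1 CPM on D5 in space and on the ground. Igf2, the growth factor next to it, rose from 4.14 to 13.6 CPM in space and from 0.599 to 38.0 CPM on the ground. These were the only calls among 21 imprinted genes tested, against 2.65% of all genes called higher and 1.45% lower. Dazl, an RNA-binding protein of germ cells, rose from 4.43 to 38.9 CPM in space and from 8.80 to 23.9 CPM on the ground, while Sycp3 and Asz1 were the other germline genes called higher out of 15, against 2.65% of all genes. Among 13 cleavage-stage genes tested, only Usp17lb was called higher, against 2.65% of all genes. It was at 0.344 and 1.56 CPM in space and 0.147 and 1.797 CPM on the ground. The medians of these 13 genes were 0.97 and 0.90. Many of these genes have close copies.

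**Figure D4:**
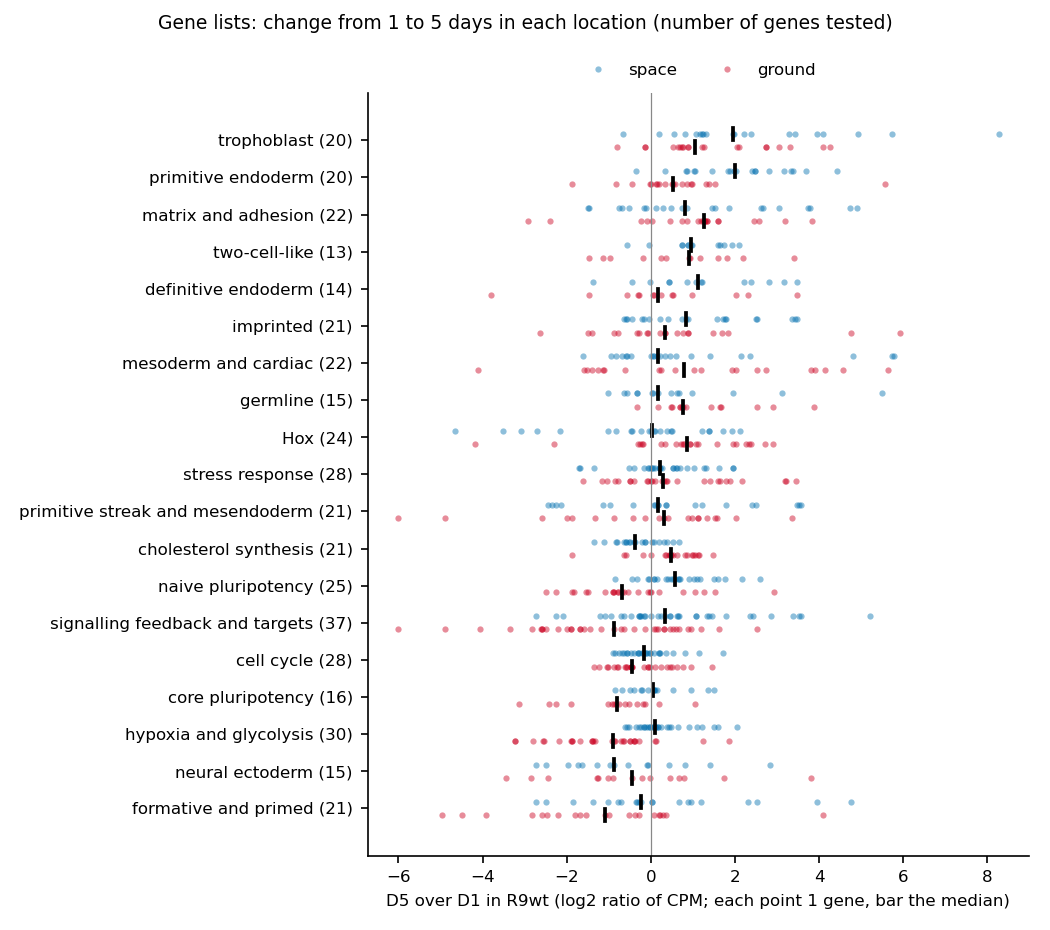
Log2 ratios of D5 over D1 (x axis) for the tested genes of each list in space (blue) and on the ground (red), with a black bar at each median. The trophoblast list has medians of 1.96 and 1.05, and the hypoxia and glycolysis list of 0.10 in space and -0.90 on the ground.

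Genes of low oxygen and sugar breakdown separated the locations. On the ground, 14 of 30 such genes were past 2-fold lower on D5, and none of these was past 2-fold lower in space, where their median log2 ratio was 0.21. Over all genes tested, 16.2% were past 2-fold lower on the ground and 16.8% in space. Slc2a1, the basal glucose transporter, was at 1280 and 136 CPM on the ground and at 1094 and 1708 CPM in space. Ldha, lactate dehydrogenase, was at 7173 and 1590 CPM on the ground and at 5637 and 5827 CPM in space. Egln3, an oxygen-sensing hydroxylase induced by low oxygen, was at 89.9 and 9.57 CPM on the ground and at 24.6 and 102 CPM in space. Vegfa, an angiogenic factor, departed from these and was called higher, with 8.30 and 23.6 CPM in space and 9.84 and 23.2 CPM on the ground, a call lost whichever of the 4 libraries was left out. Vegfa was the sole gene of the list called higher and Pdk1 the sole gene called lower, against 2.65% and 1.45% of all genes.

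Among stress genes, 6 p53 targets were picked from the stress list after the values were seen (Cdkn1a, Mdm2, Ccng1, Bbc3, Pmaip1 and Trp53inp1). Each of the 6 was past 2-fold higher on D5 on the ground and none was in space. They are not a full set of the p53 targets in the list, which also holds Sesn2. Over the whole list of 28 genes, 10 were past 2-fold higher on the ground and 6 in space, against 16.3% and 13.9% of all genes tested. Cdkn1a (p21), the cell cycle inhibitor, was at 223 and 1003 CPM on the ground and at 345 and 357 CPM in space. Mdm2, the ubiquitin ligase of p53, was at 112 and 416 CPM on the ground and at 347 and 416 CPM in space. Bbc3 and Trp53inp1 were past 2-fold higher on the ground and past 2-fold lower in space, as was Ddit3, a factor of the integrated stress response, at 7.43 and 69.7 CPM on the ground and 31.7 and 9.92 CPM in space. No stress gene was called in either direction. Among 28 cell cycle genes, none was called higher and only Ccnd1 lower, against 2.65% and 1.45% of all genes. The medians were -0.17 in space and -0.44 on the ground. Cdkn2b, an inhibitor of Cdk4, was past 2-fold higher in both locations without passing the test. Among 21 cholesterol synthesis genes tested, none was called higher and 1 lower, against 2.65% and 1.45% of all genes. Of these 21, only Insig1 was past 2-fold lower in space and higher on the ground, against 4.32% of all genes.

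The ratios of D5 over D1 of genes chosen for their change in R9wt cells are set here beside those in Rad9-/- cells. Krt18 was at 161 and 254 CPM in space and at 105 and 402 CPM on the ground in R9del cells, with log2 ratios of 0.66 and 1.94 against 3.96 and 4.10 in R9wt cells. Tagln had log2 ratios of -0.67 and 0.53 in R9del cells against 4.81 and 3.90 in R9wt cells, and Cyr61 of -0.68 and 0.26 against 2.63 and 2.46. Etv4 had ratios of 0.03 and -0.84 in R9del cells against -2.73 and -2.21. Larp4b had ratios of 1.28 and -0.11 against -3.05 and -3.67. The interaction of genotype and culture duration, tested with edgeR's quasi-likelihood test over 22561 genes, gave no gene that passed after adjustment (smallest adjusted p = 0.39), and DESeq2's Wald test gave 156. Genes with an unadjusted p under 0.05 numbered 973 (4.31%). Of the 34 named genes called higher in R9wt cells, 30 had both R9del ratios below the smaller R9wt ratio, and of the 15 called lower, 14 had both R9del ratios above the R9wt ratio nearer 0. All genes named here were chosen for their R9wt values, so these counts and ratios carry no test.

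**Figure D5:**
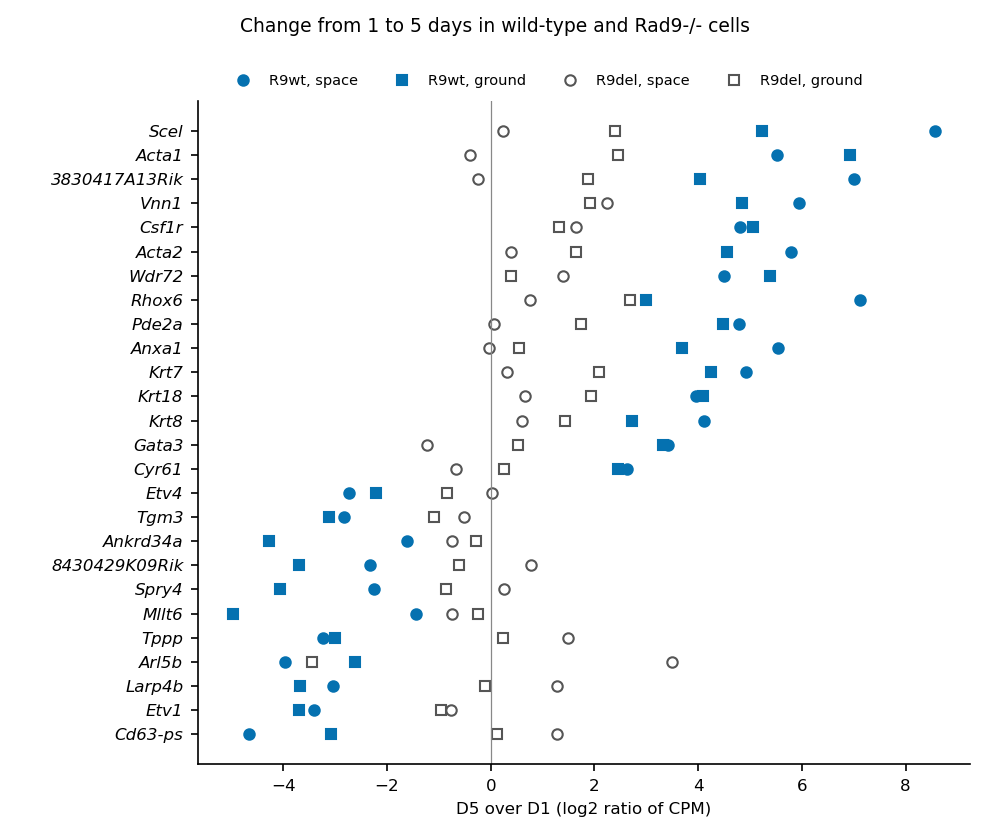
Log2 ratios of D5 over D1 (x axis) for 26 genes with large changes in R9wt cells, with filled symbols for R9wt and open symbols for R9del, circles for space and squares for ground. The R9del symbols lie nearer 0 for most genes, as for Krt18 at 0.66 and 1.94, with Arl5b an exception at 3.50 and -3.46.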

How the data were processed

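RNA of 8 mESC cultures was sequenced as paired-end mRNA libraries, and per the labels the reads were checked with FastQC, aligned to mm9 with TopHat2 (version 2.0.9) and compared with edgeR. The deposited values are raw read counts per gene made by the authors, for 50686 Ensembl identifiers; the counting program, annotation and use of strand are not given in the sources used here, so overlapping and antisense genes cannot be told apart. All columns were mapped, and 0 were left unused. Only the 4 R9wt libraries entered the main comparison, and all 8 the interaction. With edgeR (version 4.0.16, R 4.3.3), genes were kept by filterByExpr at a minimum count of 10, scaled by TMM and tested with glmQLFit and glmQLFTest with location as a covariate. Log2 ratios within a location used a prior count of 2. Log2 fold changes came from the edgeR fits and are not on that scale. For Scel the fit gave 7.61, against log2 ratios of 8.57 in space and 5.24 on the ground. The ratio of 69.9 for Csf1r on the ground was taken without the prior count, and with it the ratio was 33.3. The least folds given for Scel in space and Fgf5 on the ground were set against the count limit stated with them. The SE beside a log2 fold change was derived from the test, as its absolute value divided by the square root of the quasi-likelihood F statistic. Calls followed the thresholds of the study. DESeq2 was version 1.42.0.

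Named genes were, in each list, up to 8 members of at least 1 CPM past 2-fold the same way in both locations and up to 3 in opposite ways, a set of fixed lineage genes, and over all genes the 10 largest rises, the 10 largest falls and 5 opposite genes of each direction. Other members were named after their values were seen, and a few genes are not reported here. The lists and libraries were chosen with earlier results of these data known. Coordinates and exon overlap came from the GENCODE annotation of mm9, and older symbols were matched through RefSeq; list genes with no match (Sox1, Hoxd4, Zscan4a, Zscan4e, Tcstv1, Tcstv3, Rhox5, Rian, Mirg, Kcnq1ot1 and Hmgcs1) are not analysed here. On simulated counts for the R9wt comparison (20210 genes), the test recovered 28% of genes changed 2-fold, 78% at 4-fold and 100% at 16-fold, and called 4.5% of unchanged genes. The changed genes were drawn from those above a minimum mean count. No location effect was simulated and each change was the same in both locations, unlike in the data, so recovery here may differ.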

Additional observations from a re-analysis of the deposited data

Results flagged for a closer look

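The genes below had log2 ratios of D5 over D1 past 2-fold in opposite directions in the space and ground pairs of R9wt cells. Each pair has 1 library a side, so the differences between the locations were not tested. The difference of the log2 ratios (space minus ground) was 9.55 for Lefty1, 8.45 for Lefty2, 5.98 for Smad7 and 9.74 for Fgf5, whose D5 ground count was 0. Among pluripotency and epiblast factors it was 4.14 for Prdm14, 2.27 for Nr5a2, 2.85 for Klf2, 3.93 for Myc, 6.25 for Zic2 and 3.65 for Otx2. Sox7, a primitive endoderm factor, differed by 5.20 and the imprinted gene Zdbf2 by 4.39. Egln3, Egln1 and Hk2, of the hypoxia and glycolysis list, differed by 5.28, 3.46 and 3.08. Lrrc15 and Ehd2, named over all genes, differed by 7.28 and 5.59.

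The reverse pattern, lower in space and higher on the ground, gave differences of -3.25 for Mesp2, -3.74 for Hoxb7, -2.22 for Insig1, -4.90 for Ddit3, -3.36 for Trp53inp1 and -2.96 for Bbc3. Over all genes it was -14.6 for AL954710.1, -7.89 for Gm14091, -7.61 for B230206H07Rik, -5.52 for Phc3 and -5.74 for Figla, a factor of oocytes. AL954710.1 lies wholly within another gene model and had 1 count in the space D5 and the ground D1 libraries.

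Some named genes called in R9wt cells moved one way in both R9wt pairs and the other way in both R9del pairs. The mean log2 ratio of R9wt minus that of R9del was 4.11 for Col6a1, -4.57 for Cd63-ps and -3.98 for Tppp, and none of these passed the adjusted interaction test (edgeR's quasi-likelihood test). No group held enough libraries for a check of single libraries that stand apart.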

How the results depend on the processing

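With library size alone or DESeq2's size factors, no list median or named gene ratio changed sign, and none moved by more than 0.06 on the log2 scale; a prior count of 0.5 moved them by up to 2.00 with no change of sign. A fit without the replicate block (location left out) called 536 genes higher and 260 lower, of which 651 were among the 866 calls, and 45 of 49 named calls held. DESeq2's Wald test called 928 higher and 530 lower (253 after adjustment), the likelihood ratio test 814 higher and 550 lower (198 after adjustment in both directions), and the fit over all 8 libraries 1088 higher and 651 lower (9 after adjustment). Leaving out each R9wt library in turn, without the block, called 361 to 654 genes higher, 240 to 729 lower and 0 to 16 after adjustment, with the D1 or D5 group of 1 library assumed to vary like the other. Calls lower rose to 528 without the ground D5 library and to 729 without the space D5 library, calls higher were 361 without the space D1 library, and 16 genes passed adjustment without the ground D5 library. The 49 named calls kept their direction in all 4, and 38 to 40 of them held; Pim2 and Vegfa were among those that held in none. Calls lost without 1 library were those of Dppa3, Foxa2, Msx2, Pax6, Vim and Tppp (ground D5), Col4a1, Col4a2, Ankrd1, Col1a2, Timp3 and Stra8 (space D5), Dazl, Foxa2, Msx2, Pax6, Col1a2, Vim, Tppp and Stra8 (space D1), and Mllt6, Ankrd34a, Col4a1, Timp3 and Stra8 (ground D1), among others. Without a filter, genes down in both locations numbered 1322, up in space and down on the ground 967, and the reverse 1376. Among genes of at least 10 CPM the counts were 195 up in both, 69 down in both, 117 and 137. For the interaction, DESeq2's Wald test gave 156 genes after adjustment, a fit without the replicate block gave 0 (726 unadjusted), and leaving out each library gave 0 to 2 adjusted and 447 to 1962 unadjusted (R9del: 447 without space D1, 636 without space D5, and 2 adjusted without ground D1; R9wt: 1466 without ground D1, 1539 without ground D5, 1962 without space D5). The cause of these shifts was not tested. Genes with a few counts, such as Gal3st4 on D5, are limited by depth.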
